A study of Mus musculus with 30 samples.

Results

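The genes described here are 44 postsynaptic density scaffolds and dendritic spine regulators, taken by name from the deposited counts of 17477 genes in mouse hippocampus. The postsynaptic density is the protein layer under the membrane of an excitatory synapse, where scaffold proteins hold glutamate receptors opposite the site of transmitter release. PSD-95 and related membrane-associated guanylate kinases (MAGUKs) bind the receptors, SAPAP proteins link the MAGUKs to Shank proteins, and Shank and Homer proteins form a deeper lattice that reaches the actin skeleton. Guanine nucleotide exchange factors, the WAVE complex and actin-binding proteins then shape the spine, the small protrusion of the dendrite that carries most excitatory synapses of hippocampal pyramidal cells.

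RNA-seq was carried out on hippocampus of adult C57 BL/6J mice that had been kept 1 to a cage since weaning (social isolation, SI) or had stayed in shared cages (group housed, GH). The SI groups held 8 females and 7 males and the GH groups 7 females and 8 males, with 1 library per mouse, and the labels name no transgene or agent in any group. The labels do not say which GH mice shared a cage, and each mouse was fitted as independent. The p-values therefore do not measure the spread between cages. The mice had been used for behavioural tests before their brains were taken, so all 4 groups share that handling. The comparison in each sex asks how isolation after weaning relates to expression in the adult hippocampus. All 44 genes were found by symbol and Ensembl ID, all 44 passed the filter on low counts in both sexes, and the lowest deposited count of any of them in any mouse was 197, for Dlgap2 in a male. In whole tissue, fewer cells of a type and less RNA per cell cannot be told apart.

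Total counts on genes were 24565600 to 100845000 in SI females, 28667700 to 53512200 in GH females, 18809300 to 58232300 in SI males and 33433000 to 66575800 in GH males. Markers of neurons, of CA1, CA3 and dentate cells and of glia all had counts, with no marker at 0 in every mouse. SI males 25, 33 and 39 stood apart from the other males, with 12.4% to 15.3% of counts in transcripts shorter than 1 kb against 5.32% to 8.19% in the other 12. Log2FC in males is therefore given with and without these mice.

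The promoters of 3 members called in females are shown, those of Ppp1r9b and Shank3, which fell, and of Baiap2, which rose. Each is the 250 bases before the start in RefSeq on GRCm38.p6, 5′ to 3′ on the gene's strand, with capitals marking matches to the motifs searched. These are chr11:94990962-94991211, chr15:89499358-89499607 and chr11:119942842-119943091, all on the + strand.
Ppp1r9b: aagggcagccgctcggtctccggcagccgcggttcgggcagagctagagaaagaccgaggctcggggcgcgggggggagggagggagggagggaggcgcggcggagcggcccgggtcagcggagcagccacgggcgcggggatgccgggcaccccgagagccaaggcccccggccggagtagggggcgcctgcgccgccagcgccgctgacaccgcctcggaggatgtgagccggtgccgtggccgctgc
Shank3: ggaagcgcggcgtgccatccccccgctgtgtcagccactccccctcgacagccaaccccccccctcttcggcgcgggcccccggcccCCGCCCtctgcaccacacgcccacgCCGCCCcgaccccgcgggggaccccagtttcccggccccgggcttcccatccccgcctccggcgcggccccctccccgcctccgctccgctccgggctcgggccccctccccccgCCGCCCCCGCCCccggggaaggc
Baiap2: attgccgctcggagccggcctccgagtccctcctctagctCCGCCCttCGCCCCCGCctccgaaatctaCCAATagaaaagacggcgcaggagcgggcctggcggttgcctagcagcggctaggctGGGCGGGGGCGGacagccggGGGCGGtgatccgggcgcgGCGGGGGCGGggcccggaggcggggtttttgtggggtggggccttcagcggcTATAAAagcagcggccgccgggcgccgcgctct
The motifs, searched on both strands, were the GC box GGGCGG, the cAMP response element TGACGTCA, the E-box CACGTG, the EGR1 site GCGGGGGCG, the CCAAT box (CCAAT) and the TATA box (TATAAA), and the letters of the GC box and the EGR1 site can overlap. The Ppp1r9b window held 0 matches, the Shank3 window 5 and the Baiap2 window 10, and their GC contents were 78%, 82.4% and 72.8%. A promoter was listed for 35 of the 44 members, and 16 of these had a single one. The 27025 genes with a listed promoter had 32851 in all. A gene counted as holding a motif if any of its promoters did, so a gene with more promoters had more chances to match. The shares below were not adjusted for the number of promoters. A GC box lay in 24 of these 35 (68.6%) against 35.4% of the 27025 genes with a listed promoter, and the median GC content of the members' promoters was 59.6% against 52.4%. The E-box was in 4 members (11.4% against 6.86%), the EGR1 site in 3 (8.57% against 2.93%), the CCAAT box in 15 (42.9% against 37.5%), the TATA box in 7 (20% against 14.3%) and the cAMP response element in 1 (2.86% against 1.77%). Among the 9 members called in females that had a listed promoter, 5 held a GC box.

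In females, several core scaffolds of the postsynaptic density were lower under SI: 10 of the 44 members fell and 1 rose at an adjusted p under 0.05. Those that fell were Dlg4 and Dlg2 of the MAGUKs, Dlgap3 and Begain next to them, Shank1, Shank3 and Homer2 of the deeper lattice, the dendritic protein dendrin (Ddn), the actin-binding spinophilin (Ppp1r9b) and delta-catenin (Ctnnd2). The gene that rose was Baiap2, which encodes IRSp53. Of the 10, Dlg4 fell by 11.9% of its GH level and Ppp1r9b fell by 17.8%, with the rest between these, and Baiap2 was 15.5% higher. Of all 16026 genes tested in females, 2.93% were called lower and 0.961% higher. The members were chosen with earlier results of these data known, so their share is not that of a list blind to the data. The quasi-likelihood test of edgeR was used, with 3 surrogate variables (estimated hidden factors) as covariates and Benjamini-Hochberg adjustment over all genes. Log2FC is the log2 fold change of SI against GH from that fit, given with its standard error. At an unadjusted p under 0.05, 15 members were lower and 7 higher, against 11.0% and 9.29% of all genes. The median Log2FC of the 44 was -0.021, beside 0.0077 over all genes, and 29 of the 44 were negative, beside 7563 of all 16026 genes.

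The number called in females depended on the tool, the surrogate variables and single mice, and the share of all genes called moved with it. In edgeR it was 0 of the 44, with 0% of all genes, without surrogate variables. That held with or without the digit of each label's position code (the position digit) as a factor. With all 4 groups in 1 fit it was 2, Ctnnd2 and Homer2 (2.65% of all genes). Without surrogate variables, the same 11 members were called by DESeq2 (2.90% of the genes given an adjusted p), and limma-voom with quality weights called 16 members, these 11 included (5.23% of all genes). It was 17 without GH female 46 (8.55% of all genes), 1 without GH female 48 (1.69%) or SI female 63 (1.06%), 2 without GH female 54 (1.40%) or SI female 68 (0.550%), 3 without SI female 49 (1.8%) and 5 without SI female 73 (1.82%). All 11 called genes had an unadjusted p under 0.05, with the same sign, in each of the 27 other fits of the females. Those fits reuse the same mice and are not a separate check.

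**Figure D1:**
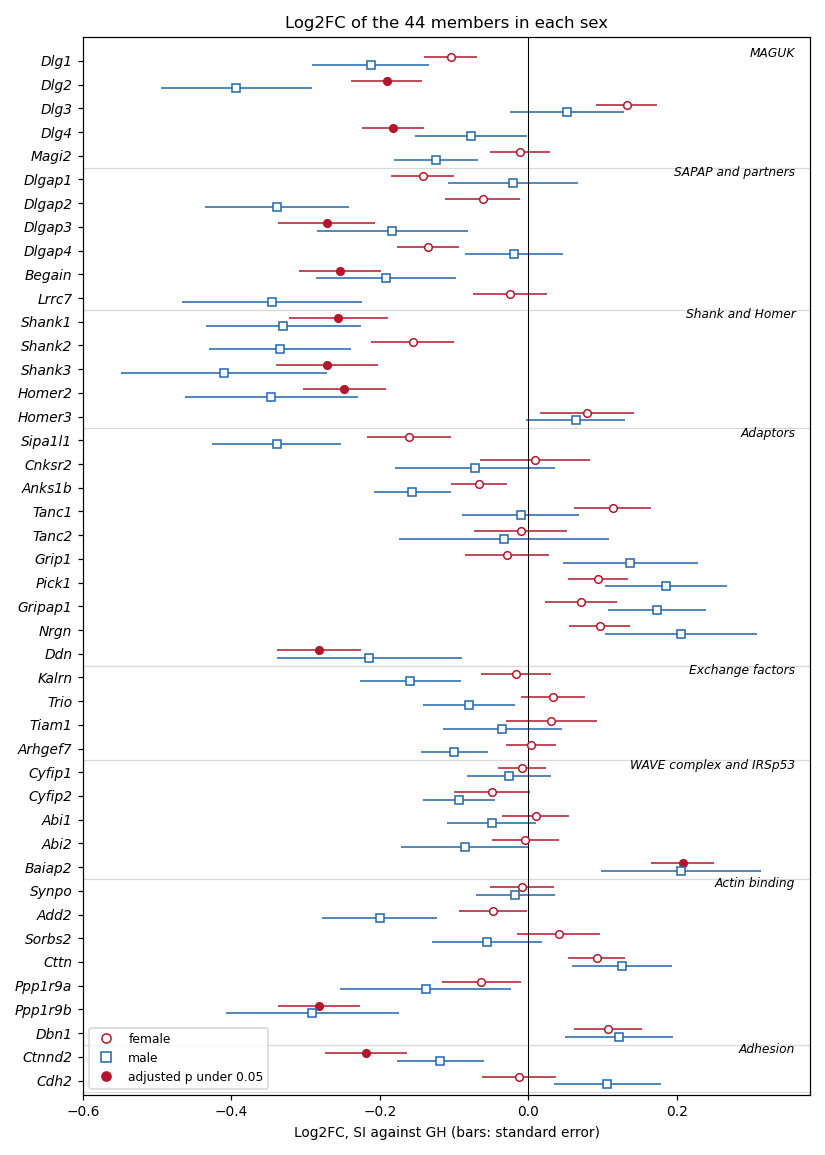
Log2FC of SI against GH (x axis) for the 44 members, grouped by role, in females (red circles) and males (blue squares), with bars of 1 standard error and filled symbols where the adjusted p was under 0.05. The 11 filled symbols are all female, and the Shank genes and Homer2 lie to the left of 0 in both sexes.

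MAGUKs are the first layer under the receptors. Dlg4 encodes PSD-95 (chr11:69830587-69859034, + strand, coordinates of genes here being those of NCBIM37). Dlg4 CPM, counts scaled to the normalized library size, were 899.6 to 1043 (median 965) in SI females and 1001 to 1306 (median 1119) in GH females. All but 1 of the SI females lay below the lowest GH female. The Log2FC was -0.18 ± 0.042 (adjusted p = 0.0242).

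Dlg2 (chr7:97650473-99595513, + strand), for the related PSD-93, gave CPM of 238 to 311 (median 271) in SI females and 270.0 to 366 (median 331) in GH females. The groups overlapped, with 4 of 8 SI females below every GH female, and the Log2FC was -0.19 ± 0.048 (adjusted p = 0.0375). Dlg1, which encodes SAP97, was not called. Its CPM were 92.9 to 113 (median 102) in SI females and 97.3 to 119 (median 114) in GH females, with a Log2FC of -0.10 ± 0.036 (unadjusted p = 0.00996, adjusted p = 0.11). All 8 SI females were below the GH median of Dlg1, and 2 were below every GH female.

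Dlg3, for SAP102, went the other way from most members. Its CPM were 149 to 235 (median 171) in SI females and 119.7 to 184 (median 156) in GH females, and the Log2FC was 0.13 ± 0.041 (unadjusted p = 0.00474, adjusted p = 0.0758). Within the MAGUKs, then, 4 of 5 had a negative Log2FC in females, 2 of them called, while Dlg3 was positive without being called. The fifth, Magi2, a scaffold with inverted domain order, had a Log2FC of -0.011.

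All 6 members of the next layer had a negative Log2FC in females, and 2 of them were called. Dlgap3 (chr4:126846448-126914266, + strand), the SAPAP member that in mice is tied to repetitive grooming, had CPM of 470.5 to 703 (median 592) in SI females and 624.9 to 889 (median 696) in GH females. Its Log2FC was -0.27 ± 0.065 (adjusted p = 0.0301), and 5 of 8 SI females lay under the GH range. Begain (chr12:110270397-110291589, - strand) encodes a protein that binds the guanylate kinase domain of PSD-95. Begain CPM were 157 to 209.7 (median 189) in SI females and 177 to 264 (median 226) in GH females, with a Log2FC of -0.25 ± 0.055 (adjusted p = 0.0185). The Begain groups overlapped, though no SI female reached the GH median.

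The other SAPAP genes were not called. Log2FC in females was -0.14 ± 0.043 for Dlgap1 (adjusted p = 0.0712), -0.14 ± 0.042 for Dlgap4 (adjusted p = 0.0785) and -0.062 ± 0.051 for Dlgap2 (adjusted p = 0.546). Lrrc7, which encodes the scaffold densin, had a Log2FC of -0.025 ± 0.050 (adjusted p = 0.838).

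The Shank and Homer genes held the highest share of calls of any layer, with 3 of 5. Shank3 (chr15:89330054-89390692, + strand), a master scaffold known for its part in autism, had CPM of 397 to 552 (median 449) in SI females and 496 to 704 (median 569.7) in GH females. In 6 of 8 SI females Shank3 was below the lowest GH female, and its Log2FC was -0.27 ± 0.069 (adjusted p = 0.038). Shank1 (chr7:51565623-51613721, + strand), which enlarges spine heads, had CPM of 803 to 1169 (median 994) in SI females and 1068 to 1499 (median 1252) in GH females. Again 6 of 8 SI females lay below every GH female, with a Log2FC of -0.26 ± 0.066 (adjusted p = 0.0409).

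Shank2 was lower in every SI female than the GH median but was not called. Shank2 CPM were 143 to 209.8 (median 188) in SI females and 170.3 to 241 (median 219) in GH females, and the Log2FC was -0.16 ± 0.056 (unadjusted p = 0.0135, adjusted p = 0.129). Homer2 (chr7:88745367-88851811, - strand), whose protein ties Shank to group I metabotropic glutamate receptors, had CPM of 81.7 to 121 (median 96) in SI females and 90 to 141 (median 129) in GH females. Its Log2FC was -0.25 ± 0.056 (adjusted p = 0.022), with 3 of 8 SI females below the lowest GH female. The related Homer3 had a Log2FC of 0.079 ± 0.064 (adjusted p = 0.533).

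Among the 10 adaptors, Ddn was the only one called in females, and 5 of the 10 had a positive Log2FC. Ddn (chr15:98634213-98638356, - strand), whose mRNA is carried into dendrites, had CPM of 2705 to 3899.8 (median 3115) in SI females and 3329 to 4749 (median 3942) in GH females. In 7 of 8 SI females Ddn was below the lowest GH female, and its Log2FC was -0.28 ± 0.056 (adjusted p = 0.0129). Sipa1l1, for the Rap-specific GTPase-activating protein SPAR that binds PSD-95 and actin, had CPM of 335 to 419 (median 375) in SI females and 341 to 512 (median 456) in GH females. Its Log2FC was -0.16 ± 0.057 (unadjusted p = 0.0115, adjusted p = 0.118), and SI and GH females overlapped.

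A few adaptors that act on receptor traffic or calmodulin had positive values without being called. Pick1, for a protein that moves AMPA receptors off the membrane, had CPM of 37.6 to 43.6 (median 41.7) in SI females and 34.8 to 43.8 (median 36.7) in GH females. The Log2FC of Pick1 was 0.093 ± 0.040 (unadjusted p = 0.034, adjusted p = 0.201). All 8 SI females were above the GH median of Pick1, inside the GH range. Nrgn, for the calmodulin-binding neurogranin, had CPM of 1613 to 2074 (median 1754) in SI females and 1450.2 to 1964 (median 1608) in GH females and a Log2FC of 0.096 ± 0.041 (unadjusted p = 0.0301, adjusted p = 0.19). Tanc1, for a scaffold that binds PSD-95, had CPM of 67.7 to 144 (median 92.4) in SI females and 56.8 to 106 (median 92.7) in GH females and a Log2FC of 0.11 ± 0.052 (unadjusted p = 0.0435, adjusted p = 0.228). For Nrgn all 8 SI females were above the GH median, while for Tanc1 the SI females split evenly around it.

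Gripap1, for the recycling endosome protein GRASP-1, had CPM of 56.2 to 90.6 (median 68.8) in SI females and 57.9 to 75.3 (median 61.8) in GH females and a Log2FC of 0.071 ± 0.048 (adjusted p = 0.445). The remaining adaptors lay nearer 0 in females: -0.067 ± 0.038 for Anks1b, the AIDA-1 gene, -0.028 ± 0.057 for Grip1, a binder of AMPA receptors, -0.010 ± 0.062 for Tanc2 and 0.0090 ± 0.074 for Cnksr2, a scaffold of Ras signalling. Their adjusted p ranged from 0.349 to 0.964.

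The exchange factors and the WAVE complex, which turn on actin branching, gave no call in females. Log2FC was -0.016 for Kalrn, 0.034 for Trio, 0.031 for Tiam1 and 0.0036 for Arhgef7, with standard errors of 0.034 to 0.061. Of the WAVE complex, it was -0.0087 for Cyfip1, -0.049 for Cyfip2, 0.0099 for Abi1 and -0.0040 for Abi2. Next to these, Baiap2 (chr11:119804077-119868096, + strand), for a membrane-bending protein that binds PSD-95 and Shank, rose. Baiap2 CPM were 231 to 325 (median 256) in SI females and 209 to 244 (median 213) in GH females. Every SI female was above the GH median, 6 of 8 were above the highest GH female, and the Log2FC was 0.21 ± 0.042 (adjusted p = 0.0134).

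Of 7 actin-binding members, 1 was called. Ppp1r9b (chr11:94852349-94868213, + strand) encodes spinophilin, which brings protein phosphatase 1 to the spine. Ppp1r9b CPM were 1853 to 2598 (median 2082) in SI females and 2312 to 3186 (median 2688) in GH females. In 7 of 8 SI females Ppp1r9b was below the lowest GH female, and its Log2FC of -0.28 ± 0.055 was the furthest from 0 of the 44 in females (adjusted p = 0.0122).

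The other actin-binding members in females were not called. Dbn1, for drebrin, which stabilises spine actin, had CPM of 264 to 354 (median 292) in SI females and 245 to 301 (median 268) in GH females and a Log2FC of 0.11 ± 0.046 (unadjusted p = 0.0326, adjusted p = 0.197). Cttn, for the branch-stabilising cortactin, had CPM of 127 to 183 (median 149.8) in SI females and 119 to 155 (median 138) in GH females and a Log2FC of 0.092 ± 0.039 (unadjusted p = 0.0301, adjusted p = 0.19). Drebrin and cortactin transcripts therefore lay on the opposite side of 0 from spinophilin, with overlapping groups. Log2FC was -0.063 for Ppp1r9a (neurabin), -0.048 for Add2 (beta-adducin), -0.0086 for Synpo (synaptopodin of the spine apparatus) and 0.041 for Sorbs2.

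Ctnnd2 (chr15:30102348-30959066, + strand) encodes the cadherin-binding delta-catenin of the adhesion belt around the synapse. Ctnnd2 CPM were 200.1 to 241 (median 224) in SI females and 245 to 298 (median 249) in GH females. The groups did not overlap: all 8 SI females were below all 7 GH females, as was so, in either direction, for 0.312% of all genes. Its Log2FC was -0.22 ± 0.055 (adjusted p = 0.0379), and no other member separated the groups in this way. Cdh2, for the N-cadherin it binds, had a Log2FC of -0.013 ± 0.050 (adjusted p = 0.921).

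**Figure D2:**
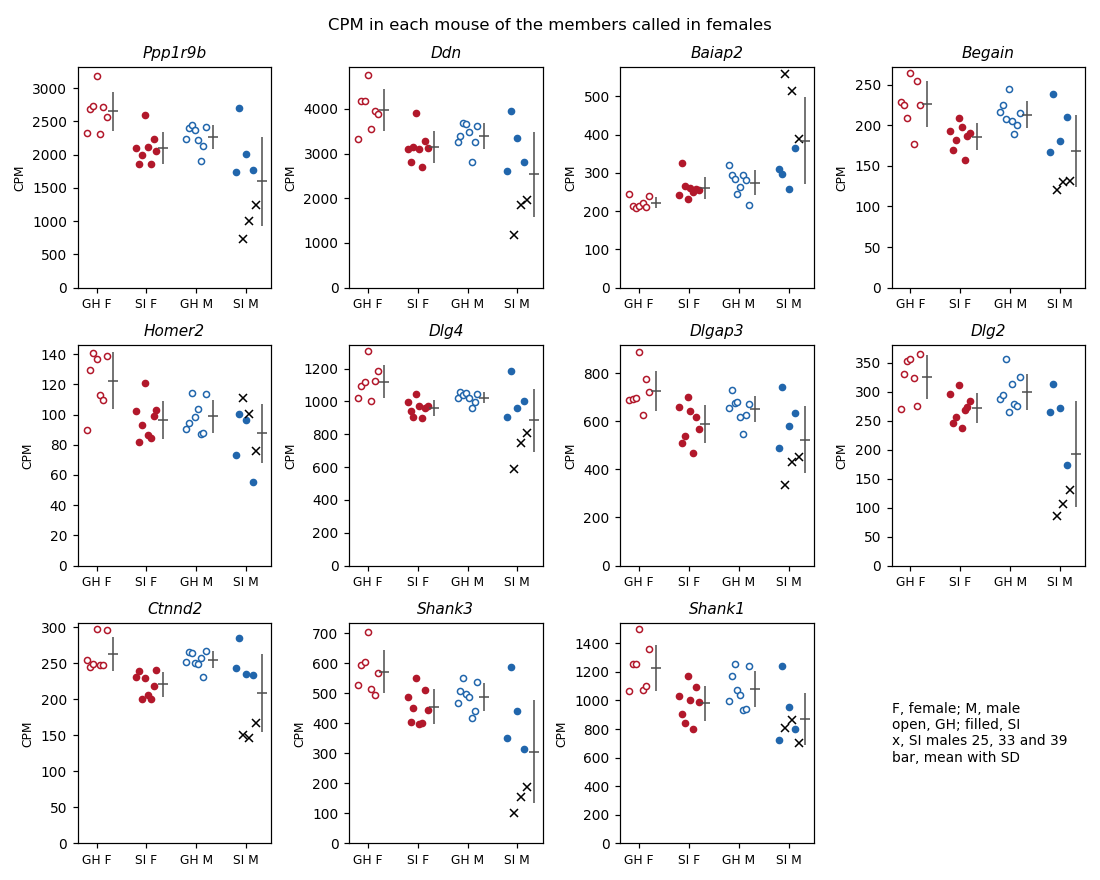
CPM (y axis, from 0) of the 11 members called in females, 1 point per mouse, for GH (open) and SI (filled) females (red) and males (blue), with crosses for SI males 25, 33 and 39 and bars for the mean and SD of each group. Ctnnd2 is the panel in which no SI female reaches a GH female.

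The falls in females stood beside shifts in marker lists of other cells. All 5 astrocyte markers had a negative Log2FC and 2 were called, with a summed level of 1394 to 1963 CPM in SI and 1729 to 2239 CPM in GH females. All 5 oligodendrocyte markers were negative and 0 called, at 5310 to 8394 CPM in SI and 6002 to 9174 CPM in GH. The 5 pan-neuronal markers were all positive and 0 called, at 3343 to 4180 CPM in SI and 3161 to 3664 CPM in GH. The 4 dentate granule markers were positive with 1 called. Of the 4 CA1 markers 3 were positive and 1 was lower at an unadjusted p under 0.05, with sums of 436 to 597 CPM (median 511) in SI and 474 to 632 CPM (median 531) in GH. All 4 endothelial markers were positive and 1 was called, at 128 to 170.2 CPM in SI and 106 to 134 CPM in GH. All 4 microglial markers were negative, at 182 to 207 CPM in SI and 190.4 to 222 CPM in GH, and all 5 choroid plexus markers positive, at 1555 to 3980.2 CPM in SI and 856 to 4876 CPM in GH, with 0 called in either list. Signs were mixed in the CA3, interneuron, thalamus and striatum lists, again with 0 called. The part of these lists in the members' values was not tested.

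SI female 45, the deepest library, was the highest of the 15 females in 24 of the 44 members, while GH female 78 was the lowest in 13 and SI female 53 in 12. Without SI female 45 the number called was 11 (2.88% of all genes), and 18 members were lower and 2 higher at an unadjusted p under 0.05. Without GH female 78 it was 14 (6.69% of all genes), and without SI female 53 it was 8 (3.88%).

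In males, 0 members were called, as were 0.00% of all 15833 genes in each direction, and the lowest adjusted p was 0.295. DESeq2 with the same surrogate variables called 2 members, Dlg2 and Sipa1l1, both lower, beside 0.353% of the genes it gave an adjusted p. Signs leaned the same way as in females: 34 of 44 members had a negative Log2FC, beside 8022 of all 15833 genes. The median was -0.083 beside -0.0020 over all genes. With each library's trend with transcript length and GC content removed, 24 of 44 were negative (median -0.011). It was also 24 with all 4 groups in 1 fit (median -0.052). At an unadjusted p under 0.05, 15 members were lower and 2 higher, against 7.38% and 5.63% of all genes. SI and GH males overlapped for every member, beside 0.0568% of all genes that did not. The 15 lower members were all 3 Shank genes and Homer2, Dlg1, Dlg2, Magi2, Dlgap2, Lrrc7, Sipa1l1, Anks1b, Kalrn, Arhgef7, Add2 and Ppp1r9b, and the 2 higher were Pick1 and Gripap1.

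SI males 25, 33 and 39 were the 3 lowest of the 15 males in 27 of the 44 members, against 25.7% of all genes, and the 3 highest in Baiap2 and Nrgn, against 24.4%. Their median log2 distance from the GH mean over the members was -0.71, -0.62 and -0.57, while GH males lay between -0.079 and 0.14. Without them, 24 of 44 members had a negative Log2FC, the median was -0.010, and 9 members were lower and 2 higher at an unadjusted p under 0.05. At that setting 2.89% of all genes were lower at the same threshold, and 0 members were called. Of the 15 lower members 7 stayed under the threshold: Dlg2, Shank1, Shank2, Shank3, Homer2, Sipa1l1 and Ppp1r9b. The 2 others were Begain and Dlgap3, and the same 7 were also under it after each library's trend with transcript length and GC content was removed.

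**Figure D3:**
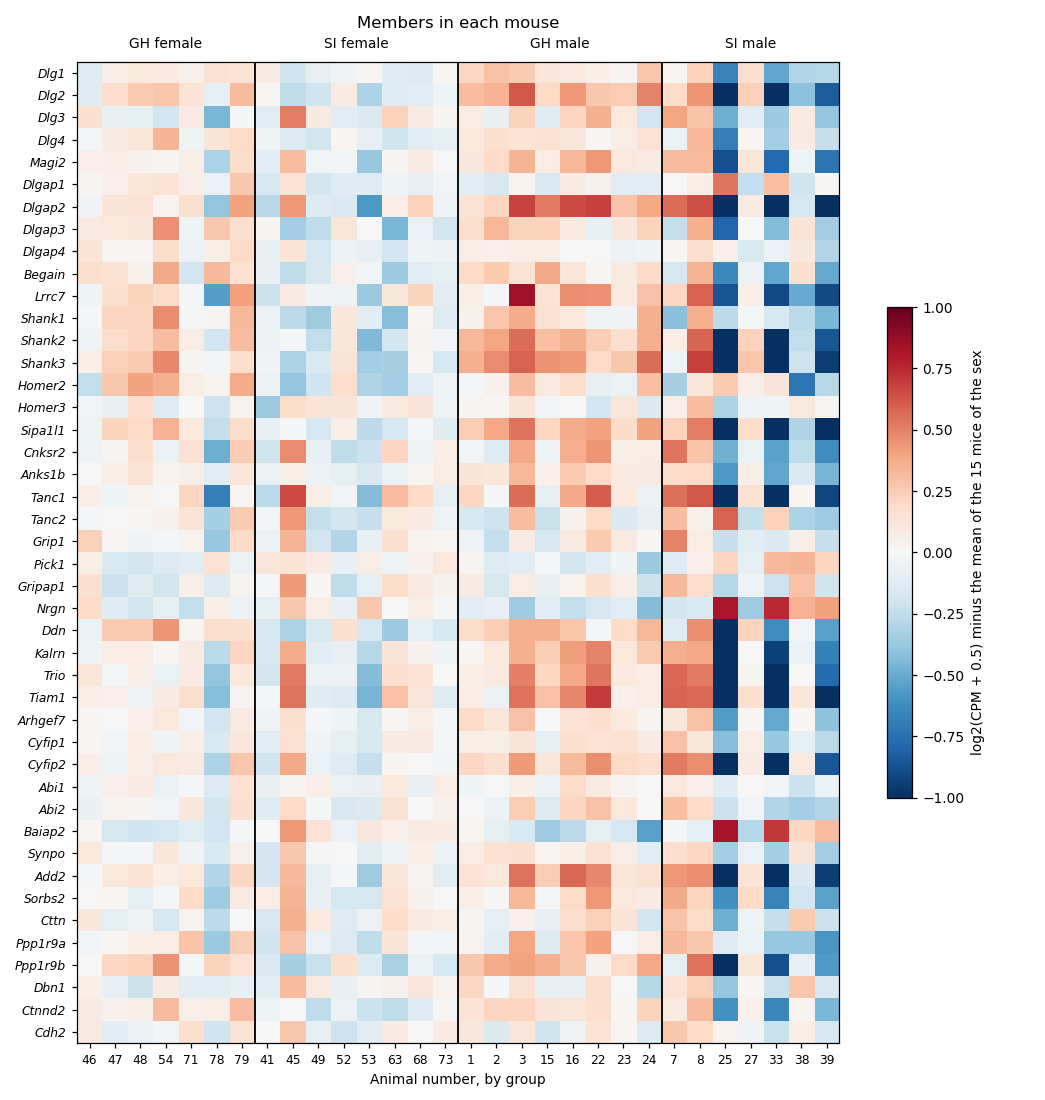
Each row is a member and each column a mouse, with colour for log2(CPM + 0.5) minus the mean of the 15 mice of the same sex, cut off at -1 and 1. SI males 25, 33 and 39 show as blue columns with red cells at Baiap2 and Nrgn, and SI female 45 as a column with many red cells.

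Single male values follow, with Log2FC from the fit on all 15 males first. CPM are not corrected for surrogate variables while Log2FC is, so a median difference and a Log2FC can differ. Shank3 CPM were 102 to 588 (median 316) in SI males and 418 to 551 (median 494) in GH males. Its Log2FC was -0.41 ± 0.14 (unadjusted p = 0.0089) and -0.30 without SI males 25, 33 and 39 (unadjusted p = 0.0251). Shank1 CPM were 703 to 1242 (median 808) in SI males and 936 to 1253 (median 1059) in GH males, and its Log2FC was -0.33 ± 0.10 (unadjusted p = 0.00568), or -0.32 without the 3 mice (unadjusted p = 0.0159). Shank1 was thus nearly as far from 0 without them, and Shank3 less far.

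Shank2 CPM were 61.6 to 235 (median 132) in SI males and 176 to 231 (median 199) in GH males. The Log2FC of Shank2 was -0.33 ± 0.095 (unadjusted p = 0.00267), or -0.22 without the 3 mice (unadjusted p = 0.0235). In each of the 3 Shank genes 5 of 7 SI males were below the lowest GH male, the 3 mice among them. Counts of SI mice outside the GH range, here and in females, were not made over all genes. Homer2 CPM were 55.5 to 111 (median 96.6) in SI males and 87.1 to 114 (median 96.5) in GH males, medians that hardly differed, beside a fitted Log2FC of -0.35 ± 0.12 (unadjusted p = 0.00861). Without the 3 mice Homer2 had a Log2FC of -0.29 (unadjusted p = 0.0417). Homer3, as in females, was positive, at 0.064 ± 0.066 (unadjusted p = 0.349), or 0.042 without the 3 mice.

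Of the MAGUKs, Dlg2 had the lowest p in males after Sipa1l1 among the members. Dlg2 CPM were 84.8 to 314 (median 174) in SI males and 265 to 356 (median 290.4) in GH males. For Dlg2, 5 of 7 SI males were below every GH male, SI males 25, 33 and 39 among them. Its Log2FC was -0.39 ± 0.10 (unadjusted p = 0.00129), or -0.25 without the 3 mice (unadjusted p = 0.014). Dlg1 CPM were 58.9 to 110.1 (median 76.5) in SI males and 95.7 to 115 (median 105) in GH males. For Dlg1 the Log2FC was -0.21 ± 0.078 (unadjusted p = 0.0147), or -0.16 without the 3 mice (unadjusted p = 0.0678). Dlg4, called in females, had male CPM of 588 to 1186 (median 904) in SI males and 958 to 1056 (median 1029.8) in GH males and a Log2FC of -0.077 ± 0.075 (unadjusted p = 0.32), or -0.075 without the 3 mice. Dlg3 stayed positive at 0.052 ± 0.077, or 0.13 without the 3 mice, and Magi2 was at -0.12 ± 0.056, or -0.0021 without the 3 mice. Dlg3 CPM in males were 119 to 221 (median 155) in SI males and 147 to 215 (median 178) in GH males, so its raw median was lower in SI males while its fitted sign was positive.

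In the SAPAP layer, Dlgap2 and Lrrc7 moved toward 0 when the 3 mice were left out. Dlgap2 moved from -0.34 ± 0.097 (unadjusted p = 0.00277) to -0.13 (unadjusted p = 0.255), and Lrrc7 from -0.35 ± 0.12 to -0.19. Dlgap3 CPM were 334 to 743 (median 491) in SI males and 546 to 729 (median 664) in GH males, with a Log2FC of -0.18 ± 0.10 (unadjusted p = 0.0918), or -0.21 without the 3 mice (unadjusted p = 0.00816). Begain CPM were 120.1 to 238 (median 167) in SI males and 189 to 245 (median 212) in GH males, with a Log2FC of -0.19 ± 0.095 (unadjusted p = 0.0587), or -0.20 (unadjusted p = 0.00998). Dlgap3 and Begain therefore had smaller p without the 3 mice than with them. Dlgap1 and Dlgap4 were near 0, at -0.021 and -0.019, or -0.018 and -0.025 without the 3 mice.

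Sipa1l1 had the smallest p of any member in males. Sipa1l1 CPM were 124 to 451 (median 256) in SI males and 358 to 459.9 (median 411) in GH males. Its Log2FC was -0.34 ± 0.087 (unadjusted p = 0.00114, adjusted p = 0.295), or -0.19 without the 3 mice (unadjusted p = 0.0212). SPAR transcript was below the GH median in 6 of 7 SI males. Ppp1r9b CPM were 725 to 2696 (median 1731) in SI males and 1910.0 to 2439 (median 2298) in GH males, with a Log2FC of -0.29 ± 0.12 (unadjusted p = 0.023), or -0.25 without the 3 mice (unadjusted p = 0.0173). Ddn CPM were 1175 to 3961 (median 2617) in SI males and 2821 to 3693 (median 3433) in GH males, with a Log2FC of -0.21 ± 0.12 (unadjusted p = 0.103), or -0.16 without the 3 mice (unadjusted p = 0.122). For spinophilin and dendrin 5 of 7 SI males lay below the lowest GH male, the 3 mice among them, while SI male 8 was the highest male of both genes.

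Ctnnd2, which separated the female groups, did not do so in males. Its CPM were 146 to 284 (median 233) in SI males and 232 to 267 (median 255) in GH males, and its Log2FC was -0.12 ± 0.059 (unadjusted p = 0.06), or -0.065 without the 3 mice. Baiap2 CPM were 258 to 558 (median 364) in SI males and 216 to 319 (median 282) in GH males, with a Log2FC of 0.21 ± 0.11 (unadjusted p = 0.0721), or 0.12 without the 3 mice (unadjusted p = 0.317). The 3 mice were the highest for Baiap2, at 389 to 558 CPM, against 258 to 364 CPM in the other 4 SI males.

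Pick1 and Gripap1 were the members with a positive Log2FC and an unadjusted p under 0.05 in males. Pick1 CPM were 41.1 to 57 (median 52.1) in SI males and 34.6 to 45.7 (median 41.7) in GH males, with a Log2FC of 0.19 ± 0.082 (unadjusted p = 0.0378), or 0.10 without the 3 mice (unadjusted p = 0.218). Gripap1 CPM were 57.4 to 88.4 (median 67.8) in SI males and 60.5 to 78.5 (median 72.9) in GH males, with a Log2FC of 0.17 ± 0.066 (unadjusted p = 0.0177), or 0.21 without the 3 mice (unadjusted p = 0.0396). The SI median of Gripap1 was below the GH median, and its fitted sign turned negative, to -0.028, with the position digit as a factor and no surrogate variables. Nrgn CPM were 1701 to 3836 (median 2777) in SI males and 1612 to 2056 (median 1977) in GH males, and its Log2FC moved from 0.21 ± 0.10 to 0.072 without the 3 mice, which were its highest. Grip1 was at 0.14 ± 0.091, or 0.22 without the 3 mice (unadjusted p = 0.0356).

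The remaining male values were as follows. Kalrn was at -0.16 (unadjusted p = 0.0333), Arhgef7 at -0.099 (unadjusted p = 0.0409), Trio at -0.080 and Tiam1 at -0.035. Without the 3 mice these 4 exchange factors were at -0.031, -0.050, 0.064 and 0.15, so that Trio and Tiam1 changed sign. In the WAVE complex, Log2FC was -0.026 (0.056 without them) for Cyfip1, -0.093 (0.054 without them) for Cyfip2, -0.049 (-0.0078 without them) for Abi1 and -0.085 (0.0065 without them) for Abi2, none with an unadjusted p under 0.05 in either fit. Cyfip1, Cyfip2 and Abi2 thus changed sign.

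Of the adaptors, Anks1b was at -0.16 (unadjusted p = 0.00854), Cnksr2 at -0.072, Tanc1 at -0.010 and Tanc2 at -0.032. Without the 3 mice they were at -0.072, 0.075, 0.16 and 0.035, so that Cnksr2, Tanc1 and Tanc2 changed sign. Tanc1 CPM were 38.6 to 126 (median 82.7) in SI males and 76.4 to 124 (median 90.8) in GH males. Of the actin-binding genes, Add2 was at -0.20 (unadjusted p = 0.0186), Ppp1r9a at -0.14, Sorbs2 at -0.056 and Synpo at -0.017. Without the 3 mice they were at -0.035, -0.012, 0.074 and 0.012, so that Sorbs2 and Synpo changed sign and Ppp1r9a moved close to 0. In all, 10 of the 44 members changed sign in males without the 3 mice, each from negative to positive and none with an unadjusted p under 0.05 in either fit.

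Dbn1 and Cttn, positive in females, were also positive in males, at 0.12 and 0.13, or 0.12 and 0.17 without the 3 mice. CPM were 234 to 371 (median 309) in SI males and 251 to 353 (median 304) in GH males for Dbn1 and 104 to 179 (median 142) in SI males and 129 to 173 (median 151) in GH males for Cttn. Cdh2 had a Log2FC of 0.11, or 0.15 without the 3 mice.

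**Figure D4:**
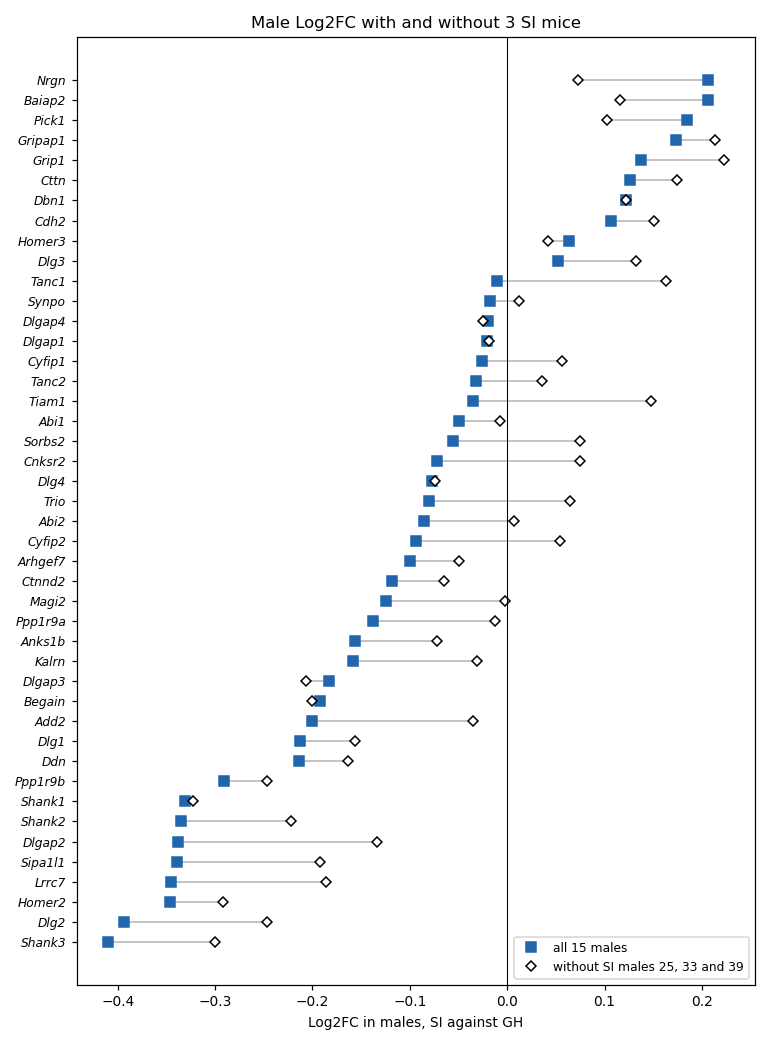
Log2FC of SI against GH in males (x axis) for the 44 members, from all 15 males (filled squares) and without SI males 25, 33 and 39 (open diamonds), ordered by the first. Shank1, Begain and Dlgap3 hardly move, while Tanc1 and Tiam1 cross 0 to 0.16 and 0.15.

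Male calls also turned on single mice, while marker lists were read from the fit on all males only. Without SI male 27, 19 members were called (15 lower, 4 higher), when 15.3% of all genes were called, and without any other single male 0 were. The number with an unadjusted p under 0.05 was 17 of the 44 with all males, beside 13.0% of all genes, and both moved together. It was 26 without SI male 27 (31.2% of all genes), 11 without SI male 25 (7.55%) or 33 (7.04%), 10 without GH male 3 (8.96%), 8 without GH male 24 (5.59%) and 4 without SI male 38 (3.11%). The CA1 marker list summed to 359 to 647 CPM in SI and 503 to 677 CPM in GH males, with 2 of its 4 markers negative and 2 positive and 1 each way at an unadjusted p under 0.05. Of the 5 pan-neuronal markers 4 were positive, 3 of them at that threshold, at 3612 to 4592 CPM in SI and 3511 to 4131 CPM in GH. The 4 thalamus markers, at 43.2 to 150.4 CPM in SI and 41.4 to 65.3 CPM in GH, all had a positive Log2FC and an unadjusted p under 0.05. All 5 astrocyte markers were negative, at 1307 to 1875 CPM in SI and 1483 to 1938 CPM in GH, and all 5 interneuron markers positive. Of the 5 oligodendrocyte markers 2 were negative and 3 positive, at 4703 to 10054 CPM in SI and 5459 to 7334 CPM in GH. Of the 5 choroid plexus markers 4 were negative and 1 positive, at 38 to 4143 CPM in SI and 39.6 to 2208 CPM in GH. Signs were mixed in the other lists. In each of the 12 marker lists 0 markers were called in males. The part of these lists in the members' values was not tested.

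The 2 sexes share no mice, so signs can be set side by side. Log2FC had the same sign in both for 35 of the 44 members, 27 negative and 8 positive, and for all 11 called in females. Without SI males 25, 33 and 39 it was also 35, with all 11 among them, though not the same 35. An unadjusted p under 0.05 was reached in both sexes by 9 members: Dlg1, Dlg2, Shank1, Shank2, Shank3, Homer2, Sipa1l1 and Ppp1r9b, all lower, and Pick1, higher. Of the 11 called in females, 5 were among these 9. Another 14 members reached it in neither sex. Log2FC was further from 0 in males in 33 of the 44, though in 5 of the 11 called in females, and without the 3 males in 28 and 4. These counts of agreement between the sexes were not made over all genes. They do not show whether the members differ from other genes in this. The difference between the sexes was tested by an interaction of sex and housing over all 30 mice. It called 0 members in edgeR, beside 0.00610% of all genes, and 0 members in DESeq2, beside 8 of 16391 genes. At an unadjusted p under 0.05 it gave 1 member, Dlgap2, against 7.03% of all genes, with males minus females at -0.17 ± 0.084 (adjusted p = 0.710). Without SI males 25, 33 and 39 it called 0 members and gave 7 at that threshold, Baiap2, Ctnnd2, Ddn, Dlg3, Dlg4, Nrgn and Ppp1r9b, against 9.05% of all genes (lowest adjusted p = 0.367). With no surrogate variables it gave 2, Dlgap1 and Nrgn, against 18.8%. A call in females and none in males is therefore not a difference shown between the sexes.

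Compared per length, the members spanned a wide range of levels. In GH females Nrgn had 1277 ± 136 CPM per kb of transcript (mean ± SD), Ddn 1062 ± 124, Ppp1r9b 587 ± 65.6 and Dlg4 324 ± 29.7, while Grip1 had 3.87 ± 0.52 and Tanc2 7.98 ± 0.963. Spinophilin, dendrin and PSD-95 transcripts, which fell in females, were thus among the most abundant, and Homer2, at 11.1 ± 1.73, was not.

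Members had long transcripts. The median of the longest coding transcript was 5077.5 bases for the members and 3015 for all genes tested, and 40 of the 44 were longer than the latter. Across the 44 members Log2FC in males went down with log2 length (Pearson r = -0.48), less so in females (r = -0.23). These r are descriptions across genes measured in the same libraries. GC content had a median of 61.2% (43.8% to 64.0%) in the 10 members that fell in females, against 51.5% in those not called, and r with Log2FC was -0.32 in females and -0.038 in males. With each library's trend with length and GC removed, 12 members were called in females, 10 of them among the 11, when 7.67% of the 15027 genes in that fit were called, against 3.89% before. Shank1 was then at an adjusted p of 0.0532, and Dlg1 and Dlg3 were called in addition.

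**Figure D5:**
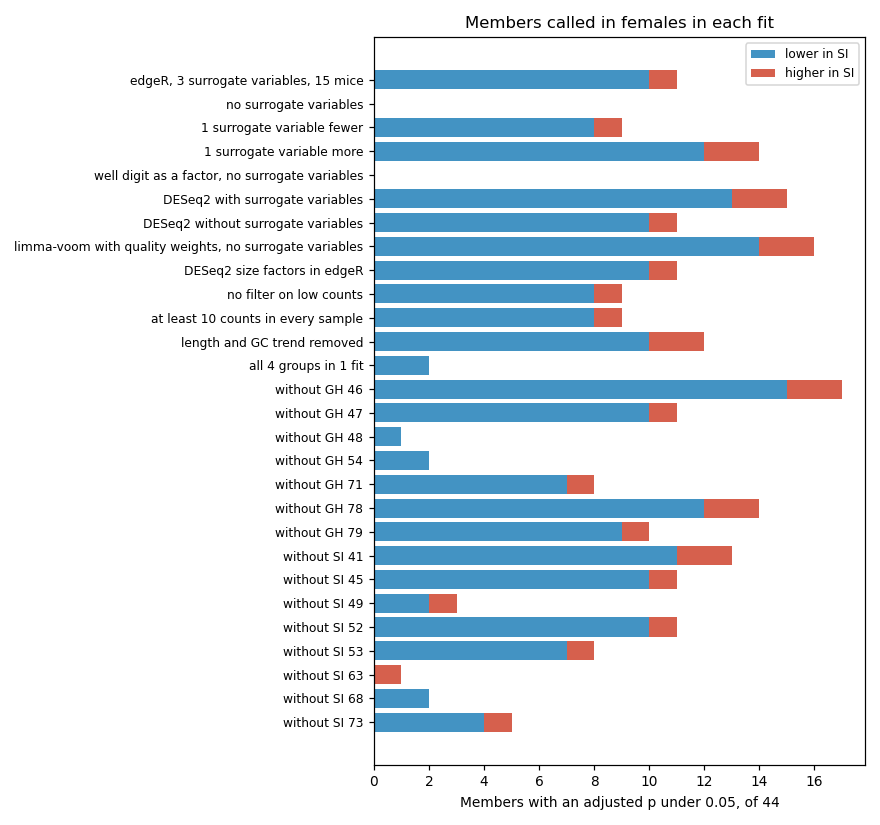
Members with an adjusted p under 0.05 in females (x axis, of 44) in each fit (y axis), lower in SI (blue) and higher in SI (red). The count is 11 with 3 surrogate variables, 0 in 2 of the fits without them, and between 1 and 17 when single mice are left out.

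A second list of 44 postsynaptic and actin regulators outside the members, chosen with results known, is set beside them. In females 5 of its genes fell and 0 rose: Rapgef4, an exchange factor for Rap, at -0.34 ± 0.057, Neurl1a, a ubiquitin ligase, at -0.29 ± 0.058, Agap2, an Arf GTPase-activating protein, at -0.27 ± 0.045, Psd3, an Arf exchange factor, at -0.24 ± 0.048, and Srcin1, an inhibitor of Src kinase, at -0.24 ± 0.051 (adjusted p = 0.00705 to 0.0168). Of all genes in females, 2.93% were called lower and 0.961% higher. In all, 12 of the list were lower and 3 higher at an unadjusted p under 0.05, against 11.0% and 9.29% of all genes. In males edgeR called 0, as it did of all genes, and DESeq2 with surrogate variables 1, beside 0.353% of the genes given an adjusted p. At the unadjusted threshold edgeR gave 12 lower and 0 higher in males, against 7.38% and 5.63% of all genes. In the 27 other fits of the females the second list had more calls than the members in 7, as many in 5 and fewer in 15, so the order of the lists is not settled, and their difference was not tested.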

How the data were processed

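Poly(A)-selected RNA of frozen hippocampus from 30 mice was sequenced as paired-end reads. The authors trimmed the reads (Trimmomatic 0.39) and quantified them (Salmon 1.8.0, GRCm39, both per the submitters' processing notes), and the deposited values are raw counts, in whole numbers, of each gene in each mouse. The table holds 17477 genes with at least 100 counts each over all mice, and symbols were matched for 16439 (94.1%). Groups, sex and animal numbers come from the labels.

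Each sex was fitted on the whole table with edgeR 4.0.16 in R 4.3.3. Low genes were dropped with filterByExpr (minimum count 10, minimum total 15), libraries were scaled by TMM, and SI was compared with GH by glmQLFit and glmQLFTest. Surrogate variables came from svaseq (sva 3.50.0), 3 in females, 2 in males and 4 in the fit of all mice for the interaction, with 20 permutations and seed 1. Adjusted p are Benjamini-Hochberg values over all genes of a fit, and 0.05 was the threshold. A standard error is the size of the Log2FC divided by the square root of the F value, CPM are counts scaled to the TMM library size, and deviations in the heat map use an offset of 0.5.

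Alternatives were 0 surrogate variables, 1 fewer or more, the digit of the position code in the labels as a factor, DESeq2 1.42.0 with or without surrogate variables (the latter added after seeing the data), limma-voom (limma 3.58.1) with quality weights, DESeq2 size factors, a fit of all groups together, removal of length and GC trends by lowess (span 0.3), no filter on low counts, a filter of 10 counts in each mouse, males without SI males 25, 33 and 39, and leaving out each mouse in turn. Fits with the position digit as a factor had no surrogate variables. The position digit is partly confounded with housing, since digit 3 has no GH female and digit 4 no SI male. Fits without surrogate variables were tried on simulated counts that held no hidden factor. The surrogate variable step, on which the calls in females depended, was not tested in that way. In each of the 98 pairs of mice of a group, counts differed beyond sampling noise (chi-square per degree of freedom of at least 9.29). Lengths, GC content and gene coordinates were read by Ensembl ID from GENCODE vM1 (NCBIM37), and promoters from RefSeq (GRCm38.p6), neither being the authors' build.

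Members and gene lists were chosen with earlier results of these data known. All members are named with Log2FC in both sexes, and values by group are given for members called in either sex, with an unadjusted p under 0.05 in both sexes, or opposite to most members with such a p in a sex. Some postsynaptic genes are not reported here.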

Additional observations from a re-analysis of the deposited data

Results flagged for a closer look

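In 13 of 176 combinations of a member and a group, 1 mouse stood apart from the rest of its group by Dixon's 95% limit, and chance alone gives about 1 in 20. SI female 45 was the highest of its group in Baiap2 (325 CPM, next 266), Cyfip2 (926, next 727), Dlgap1 (704, next 628), Dlgap4 (356, next 315) and Tanc2 (126, next 100.3). GH female 78 was the lowest of its group in Magi2 (73.3 CPM, next 93.1), Tanc1 (56.8, next 88.7), Tiam1 (73.3, next 95.5) and Trio (109, next 137). The other 4 were Dlg1 in GH female 46 (97.3 CPM, next 111), Homer3 in SI female 41 (48.8, next 60.9), Cyfip1 in GH male 15 (88.2, next 97.9) and Grip1 in SI male 7 (27.4, next 20.4). Of the genes named here, Baiap2 was the one called in females, and it was also called without SI female 45.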

How the results depend on the processing

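Of the 44 members, 11 were called in females. In edgeR 0 were with no surrogate variables, with or without the position digit as a factor, and 2 with all 4 groups in 1 fit. Without surrogate variables DESeq2 called 11 and limma-voom 16, and the other alternatives on all females gave 9 to 15. Leaving out single mice gave 1 (without GH female 48 or SI female 63) to 17 (without GH female 46). The number with an unadjusted p under 0.05 then ran from 16 (without SI female 63 or 68, beside 16.4% and 15.4% of all genes) to 26 (without GH female 46, 24.9%). For the second list, 5 were called in females, and 0 in edgeR with no surrogate variables, with or without the position digit. It was 12 with DESeq2 with surrogate variables (9.55% of the genes given an adjusted p). With single mice left out it ran from 2 (without SI female 63 or 68, 1.06% and 0.550% of all genes) to 15 (without GH female 46, 8.55%). In males 0 members were called in edgeR. DESeq2 with surrogate variables called 2, Dlg2 and Sipa1l1 (0.353% of the genes given an adjusted p). DESeq2 without them called 2 others, Baiap2 and Nrgn, when 10.3% of the 2941 genes given an adjusted p were called. Leaving out single males gave 0 to 19, 19 being without SI male 27 (15.3% of all genes). Of the second list, 1 was called in males by DESeq2 with surrogate variables and 2 without them, in the same fits and so beside the same shares. Its calls with single males left out were 0 to 13, 13 being without SI male 27. The number with an unadjusted p under 0.05 in males was 17 in all, beside 13.0% of all genes. It was 1 with the position digit as a factor and no surrogate variables (7.72% of all genes) and 3 with limma-voom quality weights (4.28%). Without SI males 25, 33 and 39 it was 11 (5.88%). With single mice left out it ran from 4 (without SI male 38, 3.11%) to 26 (without SI male 27, 31.2%). The interaction called 0 members in each of 4 fits, with 0 to 7 at an unadjusted p under 0.05, 7 being without SI males 25, 33 and 39. The Log2FC of Gripap1 in males reversed to -0.028 with the position digit as a factor and no surrogate variables. The cause of these shifts was not tested.

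Members with an unadjusted p under 0.05 in females changed sign in 0 of 264 values under other settings and 0 of 330 with single mice left out, and in males in 1 of 221 and 0 of 255. Members above that threshold changed sign in 34 of 264 and 42 of 330 values in females. In males they did so in 58 of 351 and 57 of 405. Members were split by p in the main fit, and the other fits reuse the same mice. A value far from 0 for its standard error can hardly change sign there. These counts are therefore no separate check of direction in either set of members. No paired analysis was possible because replicate numbers are animal numbers that no groups share. The lowest count of a member was 197. Median total counts were 25609600 in SI males and 49542300 in GH males, and 43484400 in SI females and 39728000 in GH females. The part of depth in the results was not tested.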
